A study of Rattus norvegicus with 2 samples.

Results

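Genes for chemokines, interleukins and their receptors were examined in the hypothalamus of unstimulated female and male rats. The set held every gene whose name on the array begins with Ccl, Ccr, Cxcl, Cxcr, Cx3cl, Cx3cr or Il followed by a digit. It came to 123 of the 26334 genes or other targets on the array, read by 138 of 30367 probes on 210 of 42877 spots that were not controls. The study compared whole hypothalamus of female and male Wistar Kyoto (WKY) rats, an inbred strain, at 9 weeks of age. No treatment was recorded for either sex, and all rats were killed under ether by decapitation, per the labels. RNA of 5 females made the female pool and RNA of 5 males made the male pool, at 100 ng a rat. A 150 ng portion of each was labelled with Cy3 and hybridised to 1 Agilent array. Values given for females and males below are those of these pools. With 1 array per pool there was no replicate and no test was possible, and sex, single rats of a pool and the array cannot be told apart. Fewer cells of a type and less RNA per cell cannot be told apart in RNA of a whole tissue.

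Chemokines are small secreted proteins that attract leukocytes through G-protein-coupled receptors, and they are grouped as CC, CXC and CX3C by the spacing of their first cysteines. Interleukins are cytokines that act through receptors built of ligand-specific and shared subunits, most of which signal through JAK kinases and STAT factors or, for the interleukin-1 and interleukin-17 families, through adaptor proteins and NF-κB. In brain, Cx3cl1 and Il34 are made by neurons and act on microglia, and interleukin-1 and interleukin-6 act on the hypothalamus in fever.

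The probe sequences below are shown because the largest differences between the pools, and the member whose probe ends in a repeat, rest on them. All are 60 bases long and written 5′ to 3′. Across the array, the probe coordinates ran along the annotated gene strand for 96.2% of 14745 probes compared with the assembly GRCr8. Capitals mark an alternating dinucleotide repeat. The first set holds the Cx3cr1 probe, at chr8:125033728-125033787 on the minus strand of rn4, and 3 probes of other genes that carry the same repeat or its reverse complement. Ackr4 lies at chr8:109160685-109160744 on the minus strand, Ptprn2 at chr6:144548969-144549028 on the plus strand and Spag7 at chr10:57543843-57543902 on the minus strand.
Cx3cr1: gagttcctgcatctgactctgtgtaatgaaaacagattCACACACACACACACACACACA
Ackr4: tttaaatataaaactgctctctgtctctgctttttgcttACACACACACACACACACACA
Ptprn2: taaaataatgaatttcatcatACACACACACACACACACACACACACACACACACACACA
Spag7: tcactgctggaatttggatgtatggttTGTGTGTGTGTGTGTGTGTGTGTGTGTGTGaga

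The second set holds the single probes of the 3 members that differed at least 2-fold and of the 2 members with the largest bounds, and both probes of Il1rl1, which gave opposite calls. Ccl19 was read at chr5:59221790-59221849 on the minus strand, Il17re at chr4:149361638-149361697 on the plus strand and Il20ra at chr1:15009512-15009571 on the plus strand. Ccr3 was read at chr8:128769167-128769226 and Il36g at chr3:2437664-2437723, both on the plus strand. The Il1rl1 probes lie on the plus strand at chr9:39617225-39617284 and, for a probe whose coordinates span 1468 bases, chr9:39619275-39620742.
Ccl19: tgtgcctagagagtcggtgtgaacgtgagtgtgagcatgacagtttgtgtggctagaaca
Il17re: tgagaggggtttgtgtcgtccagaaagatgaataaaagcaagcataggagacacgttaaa
Il20ra: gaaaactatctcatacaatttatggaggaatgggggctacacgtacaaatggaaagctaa
Ccr3: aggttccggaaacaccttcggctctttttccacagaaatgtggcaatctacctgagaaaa
Il36g: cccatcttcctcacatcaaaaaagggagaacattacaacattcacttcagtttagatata
Il1rl1 probe 1: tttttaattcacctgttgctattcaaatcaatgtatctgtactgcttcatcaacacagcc
Il1rl1 probe 2: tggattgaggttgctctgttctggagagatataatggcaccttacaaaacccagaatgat

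A level is log2 of the processed intensity minus log2 of the 75th percentile of that array, so 0 is the 75th percentile and each step of 1 is a doubling. Levels of different probes depend on the probe as well as on the RNA, so levels were set against each other only between the pools. The 75th percentile intensity was 2943 in females and 3769 in males, 84.2% of spots in females and 84.9% in males were well above background, and 0 spots were saturated. The arrays shared 1 slide, per the file headers. All 9 markers of hypothalamic neurons, Oxt and Avp among them, were measured in both pools. Bands across the slide, 35.7% of its rows, were set where repeated spots often departed from their own probe's other spots. By this choice 5.21% of repeated spots departed inside the bands, against 0.792% outside. Of the negative-control spots, 2 of 153 in the female pool and 6 of 153 in the male pool were called well above background. All of these lay inside the bands, where negative controls reached a level of -5.71 in females and -4.15 in males. Calls inside a band below those levels were thus no brighter than some negative controls. On 1 spot these took in Il20ra, Ccr7, Cxcl2, Il18r1, Socs1 and 1 probe of Il4r in both pools. In females they also took in Ccl21, Cxcl10, Il27ra and Il1rl1. Among them in males were Il17rd, Ccl26, Il1rl1, Ccr1l1, Il2rb, Il1rapl1, Il24, Il25, Stat6 and 1 probe of Il13ra1. The error quoted for a member on 1 spot is the SD of the difference that repeated spots of like signal showed, inside or outside the bands; it covers array noise and not rats.

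Of the 123 members, 74 were well above background, or called, in both pools, which is 60.2%, against 78.5% of all genes. A further 7 passed this limit in females only (1.23% of all genes were) and 5 in males only (1.97% of all genes). In neither pool were 36 members well above background (18.3% of all genes), and the 1 remaining, Il1rl1, was called in each pool by a different probe (0.0076% of all genes). By role, both pools gave a measured level for 12 of 20 CC ligands, 7 of 12 CXC ligands, the 1 CX3C ligand and 8 of 17 chemokine receptors. They also did so for 20 of 34 interleukins, 20 of 33 interleukin receptor subunits, 4 of 4 antagonists and binding proteins, and 2 of 2 receptor-like proteins. Of the 74, 46 had a level over -5 in both pools, against 16138 of the 20664 genes measured in both. Above the 75th percentile of the array in both pools lay 7 members, a count for which no share over all genes is given.

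**Figure D1:**
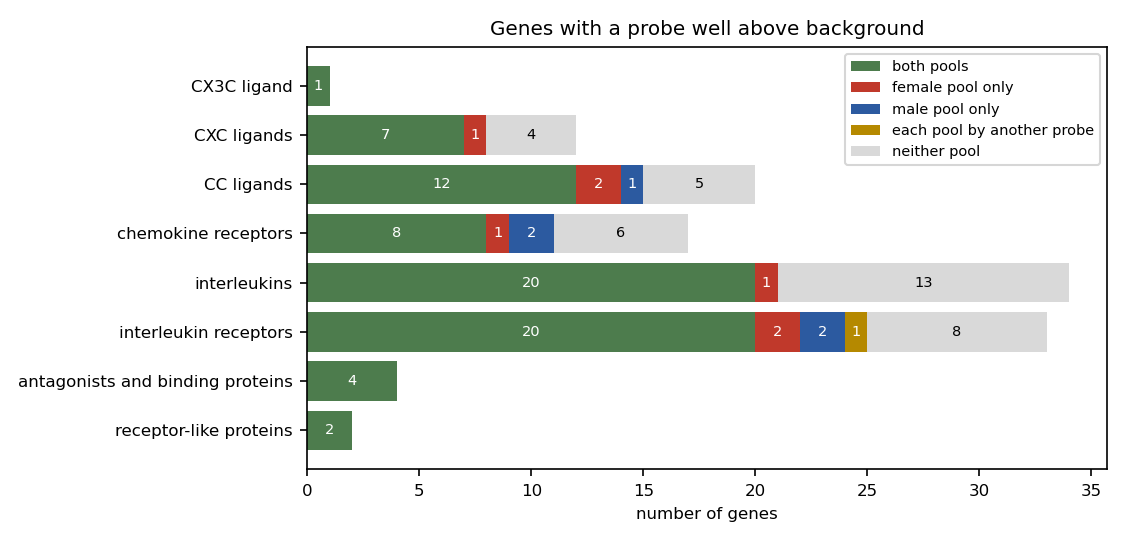
Number of genes (x axis) with a probe called in both pools, in females only, in males only, in each pool by another probe, or in neither, for the 8 roles of the 123 members. Both pools measured 12 of 20 CC ligands but 8 of 17 chemokine receptors.

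Differences between the pools were small for most members. The median female minus male difference of the 74 was 0.039 on the log2 scale, against 0.00012 over all genes, with 43 members higher and 31 lower in females (50% of all genes were higher and 50% lower). Within 1.5-fold lay 69 of the 74, and 5 lay beyond (2.4% of all genes did). Higher by at least 1.5-fold in females were 3 members, 4.05%, against 1.56% of all genes, and lower by as much were 2, 2.70%, against 0.842%. At 2-fold the counts were 2 higher (0.508% of all genes) and 1 lower (0.339% of all genes). The counts were also read by signal: among members with a level over -5 in both pools 1 of 46 differed by 1.5-fold, against 0.899% of such genes, and among the dimmer ones 4 of 28 did, against 7.76%. The differences of 24 of the 74, 32.4%, exceeded 2 technical SDs, against 29.8% of all genes. The calls past 1.5-fold depended on the background correction. Normexp was applied to the mean and local background signals. Fitted without 2 male-array spots far below background, it gave 0.91 for Ccl19, 0.73 for Il17re, 0.39 for Cxcl13, -0.35 for Il20ra and 0.051 for Il3. With all spots in the fit Ccl19 was 0.021 and the others were all below 0.

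**Figure D2:**
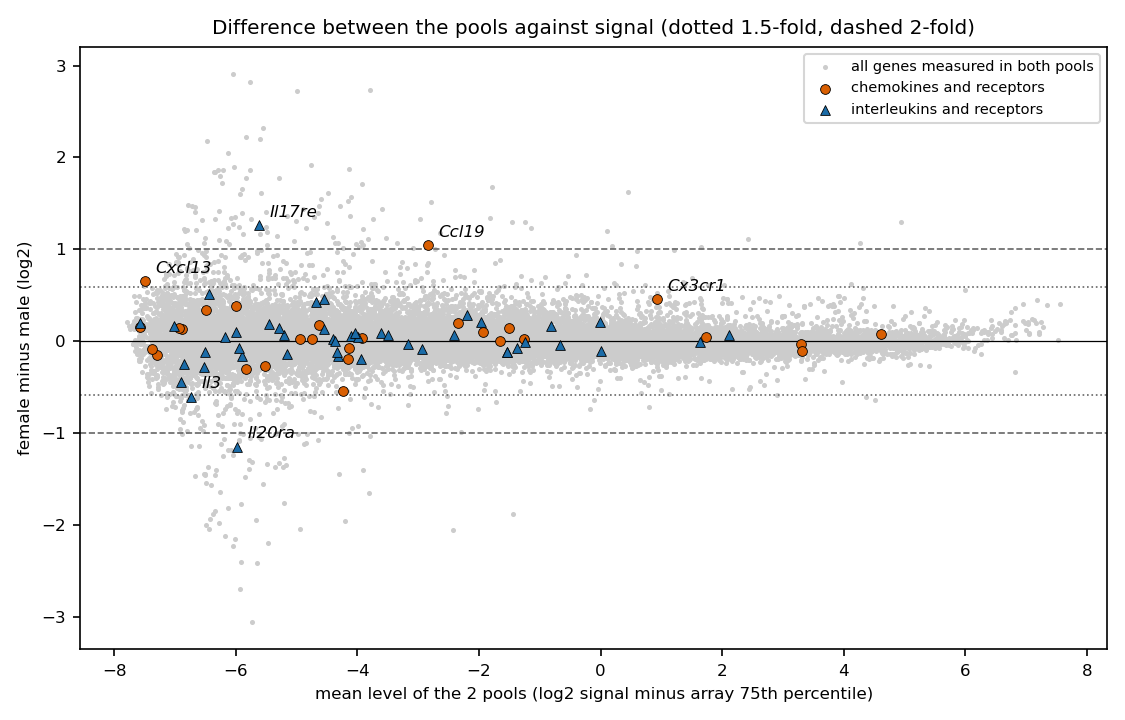
Female minus male difference (y axis, log2) against the mean level of both pools (x axis, log2 signal minus the 75th percentile) for the 74 members, with all genes measured in both pools in grey. Il17re, Ccl19 and Cxcl13 lie at least 1.5-fold above 0 and Il20ra and Il3 at least 1.5-fold below; the spread of all genes widens to the left, where signals are low.

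The single CX3C ligand, Cx3cl1 (fractalkine, a membrane-tethered chemokine), had a level of 4.64 in females and 4.57 in males. Its difference of 0.074 was within 2 technical SDs of 0.039.

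Among CXC ligands, Cxcl14, a chemokine made constitutively in many tissues, had a level of 3.26 in females and 3.36 in males. Cxcl12, the ligand of Cxcr4 that guides migrating cells, was read by 2 probes, the first at 0.22 in females and 0.19 in males and the second at -2.72 in females and -2.74 in males. The pools were thus close on either probe, while the probes themselves were far apart. Cxcl16, the transmembrane ligand of Cxcr6, stood at -2.24 in females and -2.44 in males, and Cxcl17, a chemokine of mucosal tissue, at -4.94 in females and -4.96 in males. Of the neutrophil-attracting ligands of Cxcr2, Cxcl2 stood at -6.86 in females and -7.00 in males, and Cxcl3 at -5.98 in females and -5.67 in males on the probe that was above background. Cxcl1, on 8 spots, was not well above background on any spot of either pool. The interferon-induced ligands of Cxcr3 were at or near background: Cxcl9 and Cxcl11 were called in neither pool, and Cxcl10 in females only, at -6.79, against -7.58 in the male pool, at least 1.72-fold higher, on 1 spot inside a band. The Cxcl10 call was no brighter than some negative controls there. Cxcl13, the attractant of B cells, differed most among the CXC ligands called in both pools, at -7.17 in females and -7.82 in males, a difference of 0.65 with a technical SD of 0.17. Its level lay near the dimmest that was called.

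Among CC ligands, Ccl24 and Ccl27 had levels above the 75th percentile. Ccl24, an eosinophil attractant acting on Ccr3, stood at 3.28 in females and 3.31 in males. Ccl27, a ligand of Ccr10, was on 10 spots with a median level of 1.76 (1.68 to 1.83) in females and 1.73 (1.59 to 1.84) in males, and its mean difference was 0.040 ± 0.059 (SD over 10 spots). The spots of the pools overlapped almost fully. Ccl5, an attractant of T cells and monocytes, stood at -1.88 in females and -1.98 in males.

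Ccl19, which with Ccl21 is a ligand of Ccr7 and directs T cells and dendritic cells to lymphoid tissue, had a level of -2.31 in females and -3.36 in males. It was 2.06-fold higher in females, a difference of 1.04 against a technical SD of 0.055, on 1 spot outside the bands. Of the members with a level over -5 in both pools, it was the one that differed by 1.5-fold. Ccl21 was called in females only, at -7.04, against -10.0 in the male pool, at least 1.91-fold higher, on 1 spot inside a band. Their receptor Ccr7 was 0.34 higher, at -6.32 in females and -6.66 in males, within 2 technical SDs of 0.25. It was also read on 1 spot inside a band. The calls of Ccl21 and Ccr7 were no brighter than some negative controls inside the bands.

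Markers of fibroblasts and other cells of the brain's borders are given beside Ccl19. All 8 of 8 listed meningeal fibroblast markers were measured and higher in females, 6 by 1.5-fold or more, with a median difference of 1.02; their summed signal was 355 in females and 175 in males, in percent of the 75th percentile. Of 4 markers of border macrophages, 3 were measured and higher, Cd74 by 0.66, and their summed signal was 27.3 in females and 18.9 in males, with Mrc1 not above background. Of 10 T and NK cell markers 5 were measured, summing to 23.4 in females and 21.9 in males, while Cd3e, Cd2, Cd8a and Klrb1 were not above background. Of 5 choroid plexus markers 4 were higher, 2 by 1.5-fold or more, summing to 242 in females and 134 in males. Of 6 endothelial markers none passed 1.5-fold, with a median of -0.077. The part of these cell types in the Ccl19 difference was not tested.

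Of the remaining CC ligands, Ccl9 stood at -3.91 in females and -3.95 in males, Ccl22, a ligand of Ccr4, at -4.25 in females and -4.06 in males, and Ccl17, the other ligand of Ccr4, at -4.74 in females and -4.77 in males. The pools were close for all 3. Ccl2, the main monocyte attractant, had a median over 10 spots of -6.80 (-7.09 to -6.60) in females and -6.90 (-7.47 to -6.63) in males, and differed by 0.14 ± 0.29. Ccl3, an inflammatory chemokine, had a median of -5.91 (-6.08 to -5.12) in females and -6.18 (-6.33 to -6.10) in males. It was higher in the female pool on 10 of 10 paired spots, by 0.38 ± 0.31. The lowest female spot of Ccl3, at -6.08, lay just above the highest male spot, at -6.10. Median scaling moved the median difference of all genes to -0.038, more than this gap. The spots are repeats on 1 array per pool and not rats. Ccl1 and Ccl12 were near the dimmest called, at -7.38 and -7.42 in females and -7.23 and -7.33 in males. Ccl6 had 2 probes, 0.13 higher on one and 0.27 lower on the other in females, for mean levels of -4.17 in females and -4.10 in males. Ccl4, also an inflammatory chemokine, was called in females only, at -7.25, against -8.13 in the male pool, at least 1.65-fold higher. Ccl26 was called in males only, at -9.79 in females and -7.15 in males, at least 1.49-fold lower in females, on 1 spot inside a band. This call was no brighter than some negative controls there. Ccl7, Ccl11, Ccl20, Ccl25 and Ccl28 were called in neither pool.

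**Figure D3:**
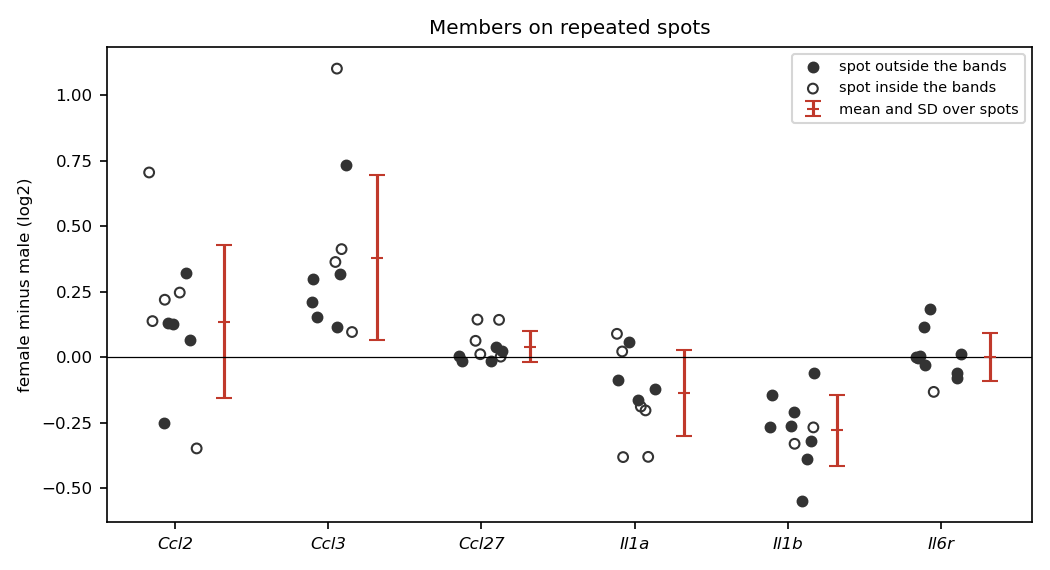
Female minus male difference (y axis, log2) at each repeated spot of the 6 members on 10 spots each and well above background (x axis), spots inside the slide bands drawn open, with the mean and SD over spots in red. Ccl3 lies above 0 on 10 of 10 spots and Il1b below 0 on 10 of 10, while the spots of the others lie on both sides of 0 or close to it.

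Of the 17 chemokine receptors, Cx3cr1, the fractalkine receptor of microglia, was the one above the 75th percentile in both pools, at 1.15 in females and 0.69 in males. Its difference of 0.46 had a technical SD of 0.040. The last 22 of the 60 bases of its probe, bases 39 to 60, are the CA repeat printed above, and the next longest dinucleotide run in any member's probe is 8 bases. The 12 other probes on the array that carry this repeat in the same orientation, in runs of 21 to 39 bases, were all higher in females. They read genes such as Ptprn2, Glra2, Extl3, Tmem47, Rassf2 and Ackr4, and differed by 0.36 to 0.48 with a median of 0.40. The difference of Cx3cr1 lay inside this range.

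Probes that carry the reverse complement of the repeat behaved otherwise: 10 of them differed by -0.034 to 0.15, with a median of 0.032. The median of the 23896 other probes was -0.00062, and their quartiles were -0.085 and 0.10. Of 12 microglia markers, all were measured, and their median difference was 0.023, with a summed signal of 2224 in females and 2219 in males. Of these Cd68 passed 1.5-fold, higher by 0.59, and P2ry12, a defining marker of microglia, differed by 0.073. The part of the repeat in the Cx3cr1 difference was not tested.

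**Figure D4:**
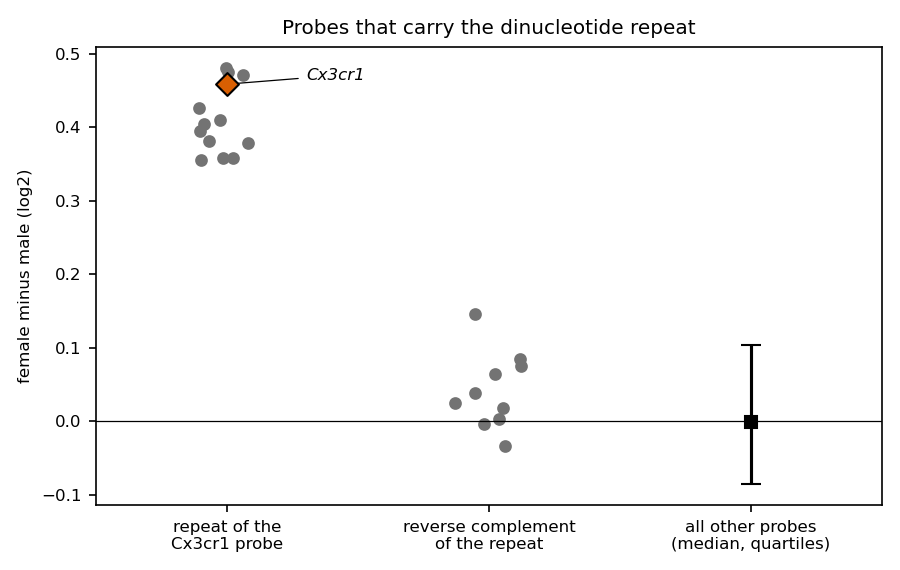
Female minus male difference (y axis, log2) of the 12 probes that share the repeat of the Cx3cr1 probe, with Cx3cr1 as a diamond, of 10 probes with its reverse complement, and the median and quartiles of 23896 other probes. The probes with the repeat lie at 0.36 to 0.48 and Cx3cr1 at 0.46 lies among them, while the reverse complement lies at -0.034 to 0.15.

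Ccr9, the receptor of Ccl25, stood at -1.44 in females and -1.59 in males. Cxcr4, the receptor of Cxcl12, stood at -4.54 in females and -4.72 in males, and Ccr1l1 at -5.66 in females and -5.39 in males. Ccr10, the receptor of Ccl27, was lower in females, at -4.51, against -3.97 in the male pool, a difference of -0.54 with a technical SD of 0.13 on 1 spot inside a band. This was 1.45-fold, short of 1.5-fold. Ccr6, the receptor of Ccl20, stood at -7.50 in females and -7.65 in males. Ccr3, the eotaxin receptor, was called in females only, at -5.44, against -9.89 in the male pool, at least 5.79-fold higher, on 1 spot outside the bands. Bounds of at least 2-fold are found for 35.8% of all genes called in females only and for 23.4% of those called in males only. Cxcr2 and Cxcr5 were called in males only, at -8.08 and -7.93 in the female pool, against -7.81 and -7.59 in the male pool, a bound of at least 1.10-fold for Cxcr5 and none for Cxcr2. Ccr1, Ccr2, Ccr4, Cxcr1, Cxcr3 and Cxcr6 were called in neither pool.

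**Figure D5:**
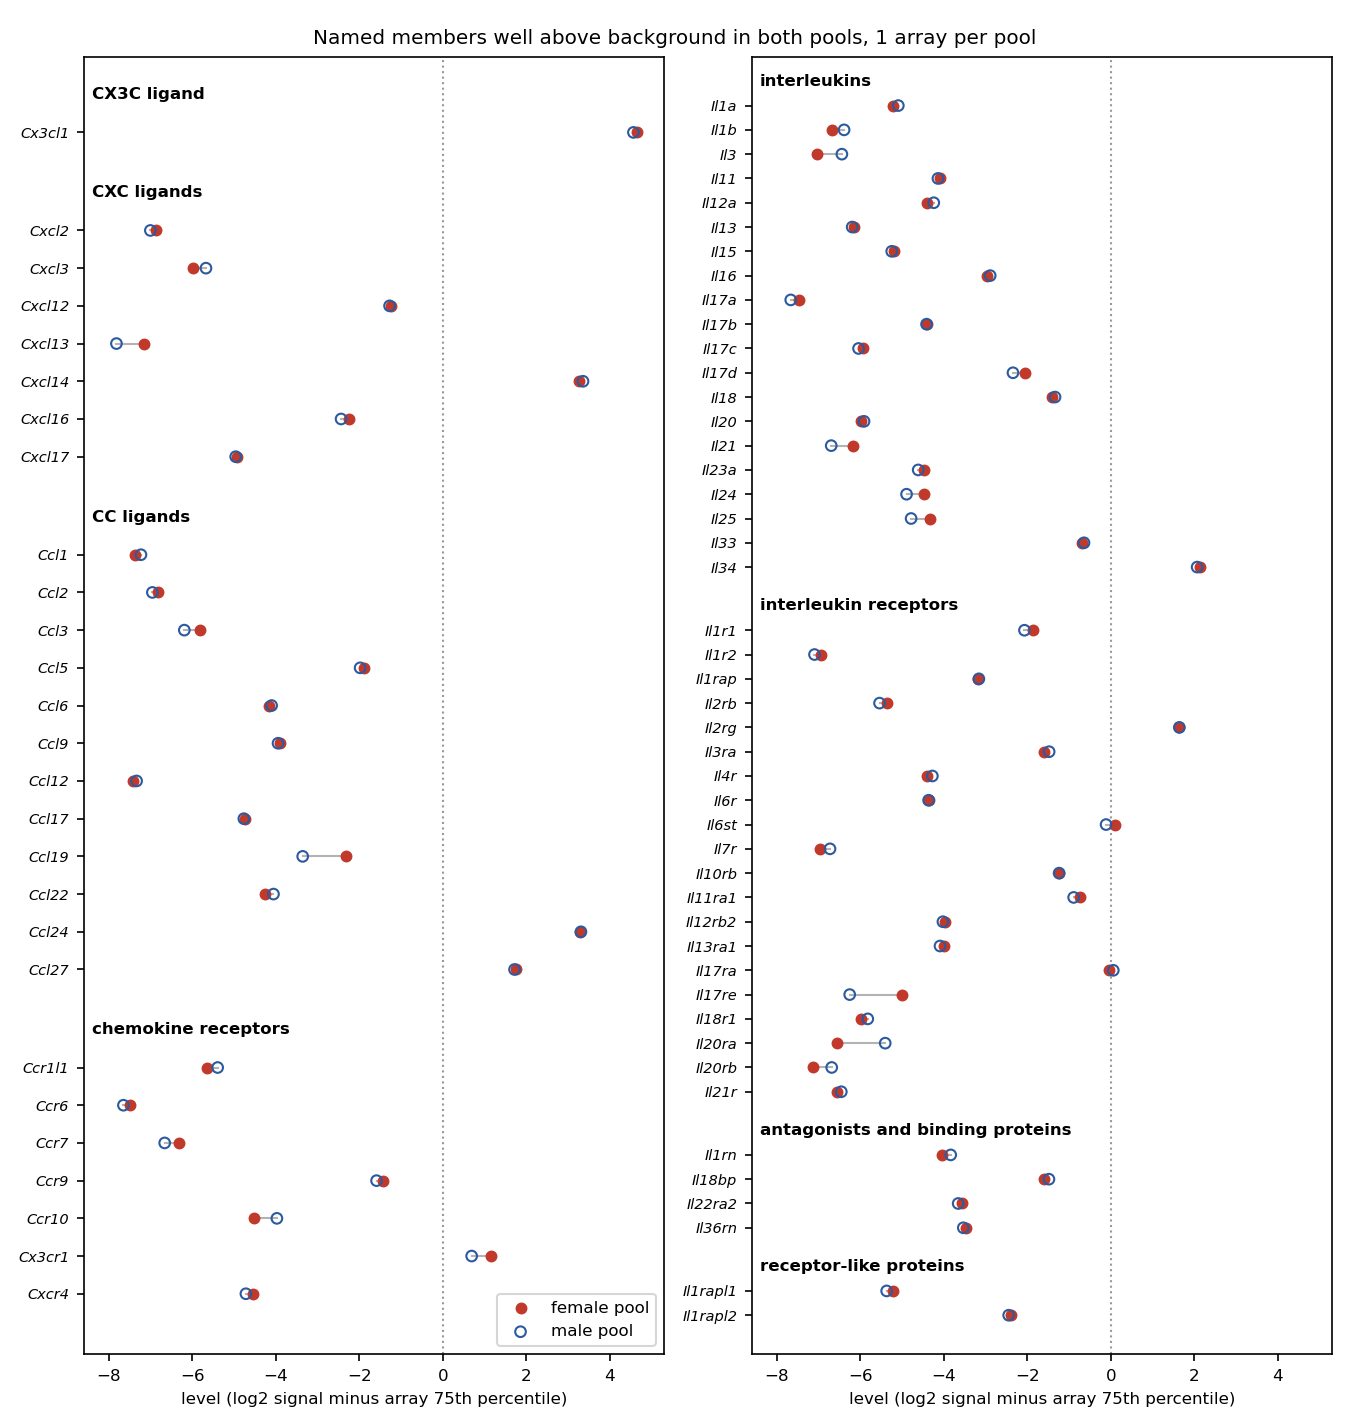
Level (x axis, log2 signal minus the 75th percentile of the array) of the members well above background in both pools and named here, female pool filled, male pool open, grouped by role and in order of name; a level of 1 gene is not comparable with that of another. The pools overlap for most members and lie apart for Ccl19, Il17re and Il20ra.

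Among the interleukins, Il34, the neuronal ligand of Csf1r that maintains microglia, had a level of 2.14 in females and 2.07 in males. Il33, an alarmin, stood at -0.69 in females and -0.64 in males, and Il18, which caspase-1 activates, at -1.41 in females and -1.33 in males. Il16, a ligand of Cd4, stood at -2.97 in females and -2.89 in males. All of these differed by less than 0.1. Il1a, on 10 spots, had a median of -5.20 (-5.42 to -4.97) in females and -5.13 (-5.29 to -4.59) in males, and differed by -0.14 ± 0.16. A second Il1a probe, on 1 spot, was at background, at -9.78 in females and -9.66 in males. Il1b, on 10 spots, had a median of -6.63 (-7.03 to -6.44) in females and -6.37 (-6.56 to -6.25) in males. It was lower in females on 10 of 10 paired spots, by 0.28 ± 0.13 on the log2 scale, and the ranges overlapped in part. Beside it, 4 of 6 neutrophil markers were measured, summing to 12.71 in females and 15.96 in males. Of these 3 were lower, S100a8 by 1.27, and 1, Camp, was higher by 0.052. Of the red cell markers, 4 of 4 measured were lower, summing to 1061 in females and 1322 in males. The part of these cells in the Il1b difference was not tested. Il6, on 9 spots, was not well above background on any spot of either pool.

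Of the interleukin-17 family, Il17d stood at -2.06 in females and -2.34 in males, Il17b at -4.39 in females and -4.41 in males, and Il17a at -7.47 in females and -7.67 in males. Il25, also of this family, was 0.45 higher at -4.33 in the female pool, against -4.78 in the male pool, on 1 spot inside a band with a technical SD of 0.25. Il24, of the interleukin-10 family, was 0.43 higher at -4.47 in the female pool, against -4.89 in the male pool, also inside a band. Il21, a T-cell cytokine, was 0.51 higher at -6.18 in the female pool, against -6.70 in the male pool. Il3, a growth factor of mast cells and myeloid cells, was lower in females, at -7.04, against -6.44 in the male pool, a difference of -0.60, or 1.52-fold, with a technical SD of 0.17. Its level was near the dimmest called. Other interleukins differed less. Il11, of the interleukin-6 family, stood at -4.09 in females and -4.14 in males, Il12a, a subunit of interleukin-12, at -4.40 in females and -4.24 in males, and Il23a, a subunit of interleukin-23, at -4.48 in females and -4.61 in males. Il15, which supports NK cells, stood at -5.18 in females and -5.25 in males, Il20 at -5.98 in females and -5.91 in males, and Il13, a type 2 cytokine, at -6.15 in females and -6.19 in males. Il36g, of the interleukin-1 family, was called in females only, at -4.86, against -9.30 in the male pool, at least 8.63-fold higher, on 1 spot inside a band. Il2, Il4, Il5, Il7, Il9, Il10, Il12b, Il17f, Il1f10, Il22, Il36a, Il36b and Il6 were called in neither pool.

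Among receptor subunits, Il2rg, the common gamma chain, stood at 1.63 in females and 1.64 in males. Il6st, the signalling chain of the interleukin-6 family, stood at 0.095 in females and -0.11 in males on 1 of its 2 probes, the other being at background. Il17ra stood at -0.050 in females and 0.061 in males, and Il11ra1 at -0.73 in females and -0.89 in males. Il10rb stood at -1.25 in females and -1.24 in males. Of the interleukin-1 receptor chains, Il1r1 stood at -1.86 in females and -2.07 in males on the probe above background, and Il1rap, its accessory chain, at -3.19 in females and -3.16 in males, also on 1 of 2 probes with the other at background. Il6r, on 10 spots, had a median of -4.35 in each pool and a mean difference of 0.0017 ± 0.092. None of these 8 differed by more than 0.21.

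The remaining subunits lay within 1.5-fold except 2. Il12rb2 stood at -3.98 in females and -4.02 in males, Il2rb at -5.35 in females and -5.54 in males, Il18r1 at -5.98 in females and -5.82 in males, Il21r at -6.57 in females and -6.45 in males, and Il1r2, the decoy receptor of interleukin-1, at -6.94 in females and -7.10 in males. Il3ra, Il4r, Il13ra1 and Il7r had 2 measured probes each, and their means were -1.59, -4.39, -4.00 and -6.97 in females and -1.48, -4.27, -4.09 and -6.73 in males. The probes of Il13ra1 and of Il4r went opposite ways between the pools, by 0.28 and -0.10 for Il13ra1 and by -0.26 and 0.015 for Il4r. The 2 past 1.5-fold were Il17re and Il20ra.

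Il17re, a receptor chain for Il17c, had a level of -4.99 in females and -6.25 in males. It was 2.40-fold higher in females, a difference of 1.26 with a technical SD of 0.17, on 1 spot outside the bands. Its ligand Il17c stood at -5.94 in females and -6.04 in males. Il20ra, which pairs with Il20rb in the receptor of Il20 and Il24, was 2.22-fold lower in females, at -6.55, against -5.40 in the male pool. This difference of -1.15 had a technical SD of 0.25 and came from 1 spot inside a band, and its partner Il20rb was also lower, at -7.13 in females and -6.68 in males. Il17rd, called in males only, stood at -7.74 in females and -6.57 in males, at least 2.23-fold lower in females, inside a band. Il31ra was called in males only, at -9.74 in females and -7.13 in males, at least 1.51-fold lower in females. Il2ra and Il27ra were called in females only, at least 1.86-fold and at least 1.61-fold higher. Il2ra stood at -7.07 in females and -8.01 in males, and Il27ra, on 1 spot inside a band, at -7.28 in females and -8.56 in males. The calls of Il20ra, Il17rd and Il27ra were no brighter than some negative controls inside the bands.

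Il1rl1, the receptor of Il33, is the member called in each pool by a different probe. One probe stood at -9.61 in females and -5.91 in males and was called in males only. The other stood at -7.28 in females and -8.10 in males and was called in females only. Both spots lay inside bands, so the array gives no direction for Il1rl1. Il10ra, Il12rb1, Il13ra2, Il17rb, Il1rl2, Il22ra1, Il5ra and Il9r were called in neither pool.

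Of the antagonists, Il1rn, which blocks the interleukin-1 receptor, stood at -4.03 in females and -3.83 in males, and Il36rn, which blocks the Il36 receptor, at -3.46 in females and -3.53 in males on 1 of its 2 probes, the other being at background. Il18bp, which neutralises Il18, stood at -1.60 in females and -1.48 in males, and Il22ra2, a soluble receptor of Il22, at -3.57 in females and -3.65 in males. Il1rapl1 and Il1rapl2, which have a role at synapses, stood at -5.23 and -2.38 in the female pool and at -5.37 and -2.44 in the male pool. None of these 6 differed by more than 0.2.

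Of 44 ligand and receptor pairs taken from textbook knowledge, 16, or 36.4%, had every part measured in both pools. A single gene was measured in both for 60.2% of members and 78.5% of all genes, and no share for pairs of other genes is given. The 16 pairs included Cx3cl1 with Cx3cr1, Cxcl12 with Cxcr4, Ccl19 with Ccr7, Ccl27 with Ccr10 and Il1b with Il1r1 and Il1rap. Of these, Ccr7 was no brighter than some negative controls inside the bands. Il1r1 and Il1rap were each measured by 1 of 2 probes. In other pairs a receptor read on 1 spot was called in neither pool: Cxcr6 for Cxcl16, Ccr2 for Ccl2, and Ccr4 for Ccl22 and Ccl17. For Ccl24, the receptor Ccr3 was called in females only. A probe that is not called does not show that the RNA is absent. Some members lie close together on the rn4 genome. The group at chr5:59198800-59239241 holds Il11ra1, Ccl27, Ccl19 and Ccl21, of which Il11ra1 differed by 0.16 and Ccl27 by 0.040 beside the 1.04 of Ccl19.

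Of the measured genes that carry the signals of these receptors, Socs1 alone passed 1.5-fold. Passing it was rare over the array too, at 2.4% of all genes. None of 10 measured JAK and STAT genes passed 1.5-fold, the largest difference being Stat6 at 0.43. Of 11 measured brakes of cytokine signalling, 1 passed, Socs1, lower by 1.32, inside a band, at -6.40 in females and -5.08 in males. It was no brighter than some negative controls there. None passed among 16 adaptors and NF-κB genes, where Traf6 was 0.36 higher, 6 inflammasome genes, 9 genes of the interleukin-6 family, 15 genes of tumour necrosis factor, interferon and colony-stimulating factor signalling, or 10 genes of chemokine G-protein and arrestin signalling. Of the 8 measured atypical chemoattractant receptors and related genes none passed, with Xcl1 at 0.42, Cmklr1 at 0.36 and Ackr4, which carries the repeat printed above, at 0.36. Over the measured genes of each list the median differences were -0.026 for JAK and STAT, -0.033 for the brakes, -0.018 for adaptors and NF-κB, -0.10 for the inflammasome, -0.038 for the interleukin-6 family, -0.0016 for tumour necrosis factor, interferon and colony-stimulating factors, -0.078 for G-protein and arrestin genes and 0.14 for atypical receptors, against 0.00012 over all genes. Ifng, Ifnb1 and Csf2 were not above background in either pool.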

How the data were processed

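The authors deposited scanner files with an intensity for each spot and a value table. Per the file headers, the processed intensity was background-subtracted and detrended by Agilent Feature Extraction 10.7.3.1, with build rn4; the submitters' processing notes name 9.1. The signal of the deposited value table equalled that intensity scaled to each array's 75th percentile. Differences are female minus male on the log2 scale of the deposited intensity, with outlier-flagged spots left out. Spots of a probe were averaged, a probe counted as measured with more than 50% of spots called well above background on each array, and measured probes of a gene were averaged. A bound used the larger of 2 values in the dim pool, its lowest called level and the probe's level. It takes no account of the technical SD. Slide bands were groups of 10 rows where over 2% of repeated spots departed by 4 robust SDs. Names were checked against GRCr8, and 119 of 123 members matched. Members, lists, markers and pairs were chosen with earlier results of these data known. Every member is counted, 1 member is not reported here by name, and from each related list the genes with the largest differences are named. Calculations used Python 3.11.15, pandas 2.3.3 and limma 3.58.1 (normexp only), and were tested on simulated data.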

Additional observations from a re-analysis of the deposited data

How the results depend on the processing

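No paired analysis was possible because each pool had 1 array and the labels give no replicate numbers. Of 10 other settings tried, normexp background correction moved most values: the median difference became -1.46, no member (0) was at least 1.5-fold or 2-fold higher, 50 were at least 1.5-fold lower and 47 at least 2-fold lower, Cxcl13 became -2.46, Il17re -1.82 and Ccl19 0.021. The all-gene median moved to -0.55 with it, and 48.8% of all genes were at least 1.5-fold lower. On the male array 2 spots, and 0 on the female array, lay far below their local background. The fitted background mean of the male array was -595 with these spots and -1.24 without, against 0.62 on the female array. An offset of 50 was added either way. A fit without spots far below their local background was chosen after seeing the data. It gave 0 members at least 1.5-fold lower (0.179% of all genes were), 0 at least 2-fold higher and 0 at least 2-fold lower, with Il3 at 0.051. Ccl19, at 0.91, and Il17re stayed at least 1.5-fold higher (0.842% of all genes were). Of the 74 members 57 lay above 0 in this fit, with the all-gene median at 0.050. Without the detection filter, 18 of 123 members were at least 1.5-fold higher (4.56% of all genes were) and 9 lower (3.33% of all genes). At 2-fold, 8 members were higher and 8 lower. The share of all genes past 2-fold in these other settings is not given. Without the slide bands, 1 was at least 1.5-fold lower (0.329% of all genes were) and 0 at least 2-fold lower, with fewer members measured. Quantile normalization and spike-in scaling each left 1 member at least 2-fold higher. Spike-in scaling moved the all-gene median to -0.095 and the members' to -0.056. The other settings, among them median scaling and the deposited value table, kept these counts within 1.5-fold. Signals near background, a single spot for 61 of the 74 members and 1 array per pool limit the precision.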
